A study of Homo sapiens with 32 samples.

Results

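The count matrix holds transcripts of HEK293T cells (embryonic kidney) and U2OS cells (osteosarcoma) in 32 libraries. The 10 genes described here, MET, AXL, EPHA2, EPHA4, FGFR1, FGFR2, FGFR3, PDGFRA, PDGFRB and IGF1R, encode receptor tyrosine kinases, and they are 10 of the 60107 genes of the matrix and 10 of 58 receptor tyrosine kinases listed. They were found by their gene symbols, and all 10 matched. The list was chosen by the fold changes already seen in these same libraries, in the comparisons described here. How many of the 10 differ between groups, and the p-values of the members, are thus a description and support nothing further.

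Receptor tyrosine kinases span the plasma membrane and bind a growth factor or a cell-bound ligand on the outside. Binding brings receptors together, they phosphorylate each other on tyrosine, and adaptor proteins then switch on the RAS to ERK and PI3K to AKT pathways. Sprouty, SPRED, CBL and DUSP proteins dampen the signal, and several of their genes are themselves ERK targets. MET binds hepatocyte growth factor and AXL binds GAS6. EPHA2 and EPHA4 bind ephrins on neighbouring cells, the FGFR proteins bind fibroblast growth factors, the PDGFR proteins bind platelet-derived growth factors, and IGF1R binds insulin-like growth factors.

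The study asked how genotoxic stress and loss of the checkpoint kinase ATM act on protein aggregation, and sequenced RNA of the same cells. Each group used here has 4 libraries. U2OS cells received camptothecin (CPT, a poison of topoisomerase 1; libraries 26 to 29) or its vehicle DMSO (libraries 30 to 33). HEK293T libraries 22 to 25 received DMSO, and libraries 18 to 21 are labelled HEK293T ATM KO, while the study's text describes RNA of this line after an ATM inhibitor, and they are called ATM inhibitor libraries here. Drug treatment lasted 24 h with 48 h of recovery, and untreated U2OS cells grew for 72 h. For the protein measurements made on the same cells, the study lists a higher CPT dose for U2OS than for HEK293T. All cells were kept in DMEM with serum. The study's U2OS ATM KO was made with CRISPR/Cas9 and picked as individual clones, so a property of a clone and loss of ATM cannot be told apart. Nothing in the labels says which libraries came from separate cultures, although the study speaks of independent repeats, and the p-values measure the spread between these libraries.

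The labels of libraries 1 to 17 go against their expression. Of these 16 libraries, 14 had the profile of the other line over 9573 genes, while all of 18 to 33 had that of their own. Libraries 2, 4, 6 and 8 are labelled HEK293T CPT, 3, 5 and 7 HEK293T DMSO and 1 U2OS WT, but the 8 U2OS markers (CAV1, CD44, ANXA1, LGALS1, S100A6, TIMP1, THBS1 and CCN2) summed to between 1805 and 2803 CPM in these 8 libraries, where CPM is the count of a gene scaled to the same total of gene counts in each library. Libraries 10, 12, 14 and 16 are labelled U2OS ATM KO, 11, 13 and 15 U2OS WT and 17 HEK293T DMSO, but the same markers summed to only 61.9 to 225 CPM. In libraries 18 to 33 these sums lay between 1542 and 2904 CPM in U2OS and between 80.9 and 147 CPM in HEK293T. Libraries 1 to 17 are therefore named by number. Read by their profiles, 2, 4, 6 and 8 against 1, 3, 5 and 7 would be U2OS ATM KO against WT, and 10, 12, 14 and 16 against 11, 13, 15 and 17 would be HEK293T CPT against DMSO. The even numbers are the perturbed libraries and the odd ones the controls under either reading, and what is in doubt is which perturbation it was.

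A check of the labels with single genes gave the following. CDKN1A, the p53 target that encodes p21, was higher after CPT in U2OS (401 ± 21.8 against 95.9 ± 6.30 CPM, mean ± SD, n = 4 each) and in libraries 10, 12, 14 and 16 (156 ± 49.7 against 34.6 ± 15.9 CPM), while libraries 2, 4, 6 and 8 had 110 ± 36.3 CPM against 96.8 ± 20.6 CPM. ATM itself had 50.9 ± 11.7 CPM in libraries 2, 4, 6 and 8 and 60.6 ± 6.65 CPM in 1, 3, 5 and 7, but tags from the 3′ end of a transcript can lie outside an edited part and check nothing about a knockout. The libraries held between 1232674 and 6362433 counts on genes, and 3 counts, the smallest number taken here as detected, equal 2.43 CPM at the lowest depth and 0.472 CPM at the highest. Such limits cover counting error only. In bulk RNA, fewer expressing cells and less RNA per cell cannot be told apart.

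MET and EPHA4 were the members past both cutoffs in each of the U2OS-profile comparisons, in opposite directions, and EPHA2 passed in U2OS CPT alone. A gene is described as called where its log2 fold change is beyond 1 in either direction and its adjusted p is below 0.05. Fold changes were fitted with a further scaling between libraries (TMM), so they can differ from the ratio of the CPM given. Levels, ranks and overlap of groups are on CPM. Their promoters are shown so that the stretch upstream of each gene can be read beside its values. Each is the 250 bases before the RefSeq start (GRCh38.p14), 5′ to 3′ on the strand of the gene. This start can differ from the GENCODE start given below with each gene. The MET window ends at 116672195, before the GENCODE start at 116672390, and the EPHA2 window reaches into the gene past its GENCODE start at 16156087. Capitals mark GC boxes (GGGCGG on either strand, the motif of SP1) and the cyclic AMP response element (CRE, TGACGTCA).
MET promoter, chr7:116671946-116672195, plus strand: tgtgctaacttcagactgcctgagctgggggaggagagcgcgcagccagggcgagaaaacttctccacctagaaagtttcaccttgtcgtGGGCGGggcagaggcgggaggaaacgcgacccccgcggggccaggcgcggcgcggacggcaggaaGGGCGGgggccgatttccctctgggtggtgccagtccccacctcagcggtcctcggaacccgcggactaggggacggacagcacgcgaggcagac
EPHA4 promoter, chr2:221574203-221574452, minus strand: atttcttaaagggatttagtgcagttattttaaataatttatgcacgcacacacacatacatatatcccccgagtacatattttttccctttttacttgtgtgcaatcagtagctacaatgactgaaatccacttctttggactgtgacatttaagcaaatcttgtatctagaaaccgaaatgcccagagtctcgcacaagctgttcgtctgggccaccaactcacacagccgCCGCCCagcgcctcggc
EPHA2 promoter, chr1:16156070-16156319, minus strand: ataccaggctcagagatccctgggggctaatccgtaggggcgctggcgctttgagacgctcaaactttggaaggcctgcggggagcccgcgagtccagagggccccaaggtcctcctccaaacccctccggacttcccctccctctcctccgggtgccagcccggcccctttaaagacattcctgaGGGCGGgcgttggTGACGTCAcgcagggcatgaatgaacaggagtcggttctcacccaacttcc
The MET window holds 2 GC boxes and 68.4% G or C, the EPHA4 window 1 GC box and 43.2%, and the EPHA2 window 1 GC box, 1 CRE and 63.2%. Over the 27305 RefSeq promoters of the same length, 42.3% hold a GC box, 1.77% hold a CRE, and the median is 58% G or C. Of the 10 genes, 9 matched the promoter table, and 8 of those 9 hold at least 1 GC box. Neither an AP-1 site (TGACTCA or TGAGTCA, in 4.16% of all promoters), an E-box (CACGTG, in 6.49%) nor a TATA box (TATAAA, in 11.1%) was found in any of the 9 windows. These are matches of letters in a window and no measurement of binding.

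In U2OS cells, CPT went with higher MET and EPHA2 and lower EPHA4. MET (ENSG00000105976, GENCODE 29, chromosome 7, 116672390 to 116798386 of GRCh38) had 133, 125, 114 and 128 CPM in the CPT libraries and 36.7, 36.8, 34.6 and 38.0 CPM in the DMSO libraries. The groups lay far apart, with every CPT library above every DMSO library and little spread within either group. The change was 3.84-fold (log2 1.94, SE 0.12, edgeR quasi-likelihood test with Benjamini-Hochberg adjustment, adjusted p = 3.5e-14).

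EPHA2 (ENSG00000142627, chromosome 1, 16124337 to 16156087), an ephrin receptor that is also an ERK target, had 70.0, 87.5, 60.9 and 76.7 CPM after CPT. Its DMSO libraries had 43.8, 37.8, 20.2 and 12.5 CPM. No DMSO library reached the lowest CPT library, although the DMSO values themselves spread more than 3-fold. The fitted change was 3.01-fold (log2 1.59, SE 0.2, edgeR adjusted p = 1.65e-07).

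EPHA4 (ENSG00000116106, chromosome 2, 221418027 to 221574202) had 14.4, 16.4, 18.01 and 15.6 CPM after CPT against 51.9, 41.3, 38.1 and 32.2 CPM with DMSO. All CPT libraries were below all DMSO libraries, by a fitted factor of 2.23 (log2 -1.16, SE 0.151, edgeR adjusted p = 2.86e-07).

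Of the 10 members, 2 were called higher and 1 lower with CPT in U2OS, where 7.97% of all 19080 genes tested were called higher and 5.5% lower. A further 4 had an adjusted p under 0.05 with a smaller change, which brings the members with a low adjusted p to 7, against 31.9% of all genes. Of these 4, FGFR1 fell by 0.50 on the log2 scale (170 ± 11.7 against 270.0 ± 15.6 CPM, edgeR adjusted p = 0.000402), FGFR2 by 0.72 (13.2 ± 3.43 against 24.6 ± 4.99 CPM, edgeR adjusted p = 0.0031) and PDGFRB by 0.97 (14.2 ± 4.35 against 32.02 ± 6.79 CPM, edgeR adjusted p = 6.26e-05). IGF1R rose by 0.50 (181 ± 9.59 against 144 ± 24.5 CPM, edgeR adjusted p = 0.000682). CPT and DMSO libraries did not overlap for these 7 genes, and 31.3% of all genes tested had groups that did not overlap.

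The other members did not pass in U2OS. AXL stayed high, at 253 ± 15.8 CPM with CPT and 239 ± 30.5 CPM with DMSO (log2 0.26, 95% interval 0.0542 to 0.472, edgeR adjusted p = 0.0586). PDGFRA, at 2.48 ± 0.974 against 5.02 ± 1.57 CPM, had a log2 difference of -0.84 (edgeR adjusted p = 0.0606), from 5 to 11 counts per CPT library. FGFR3 was close to the limit of detection in both groups, at 3.05 ± 0.963 and 2.74 ± 0.662 CPM. The PDGFRB call depends on which libraries are fitted, since it passes the fold cutoff without library 26 (log2 -1.20), 32 or 33.

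The line markers moved with CPT in U2OS. The 8 U2OS markers summed to 2811 to 2904 CPM with CPT and 1542 to 1890 CPM with DMSO, and 4 of the 8 (CAV1, CD44, S100A6 and TIMP1) were called higher. The 8 HEK293T markers (NEFM, NEFL, CKB, LIN28B, IGF2BP1, SALL2, MYCN and SOX2) summed to 196 to 214 against 429 to 477 CPM, and 3 of the 7 tested (IGF2BP1, MYCN and SOX2) were called lower, most of the difference being SOX2 at 10.5 ± 2.3 against 199 ± 16.7 CPM. This list separates the lines only in part, since between the DMSO groups 4 of the 8 were called lower in U2OS and 3 higher (NEFL, MYCN and SOX2). NEFM, the neurofilament gene that marks HEK293T most sharply, was at 0.0780 ± 0.156 CPM with CPT and 0.0860 ± 0.172 CPM with DMSO, at or near 0 in both groups. The part of the marker changes in the receptor changes was not tested.

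**Figure D1:**
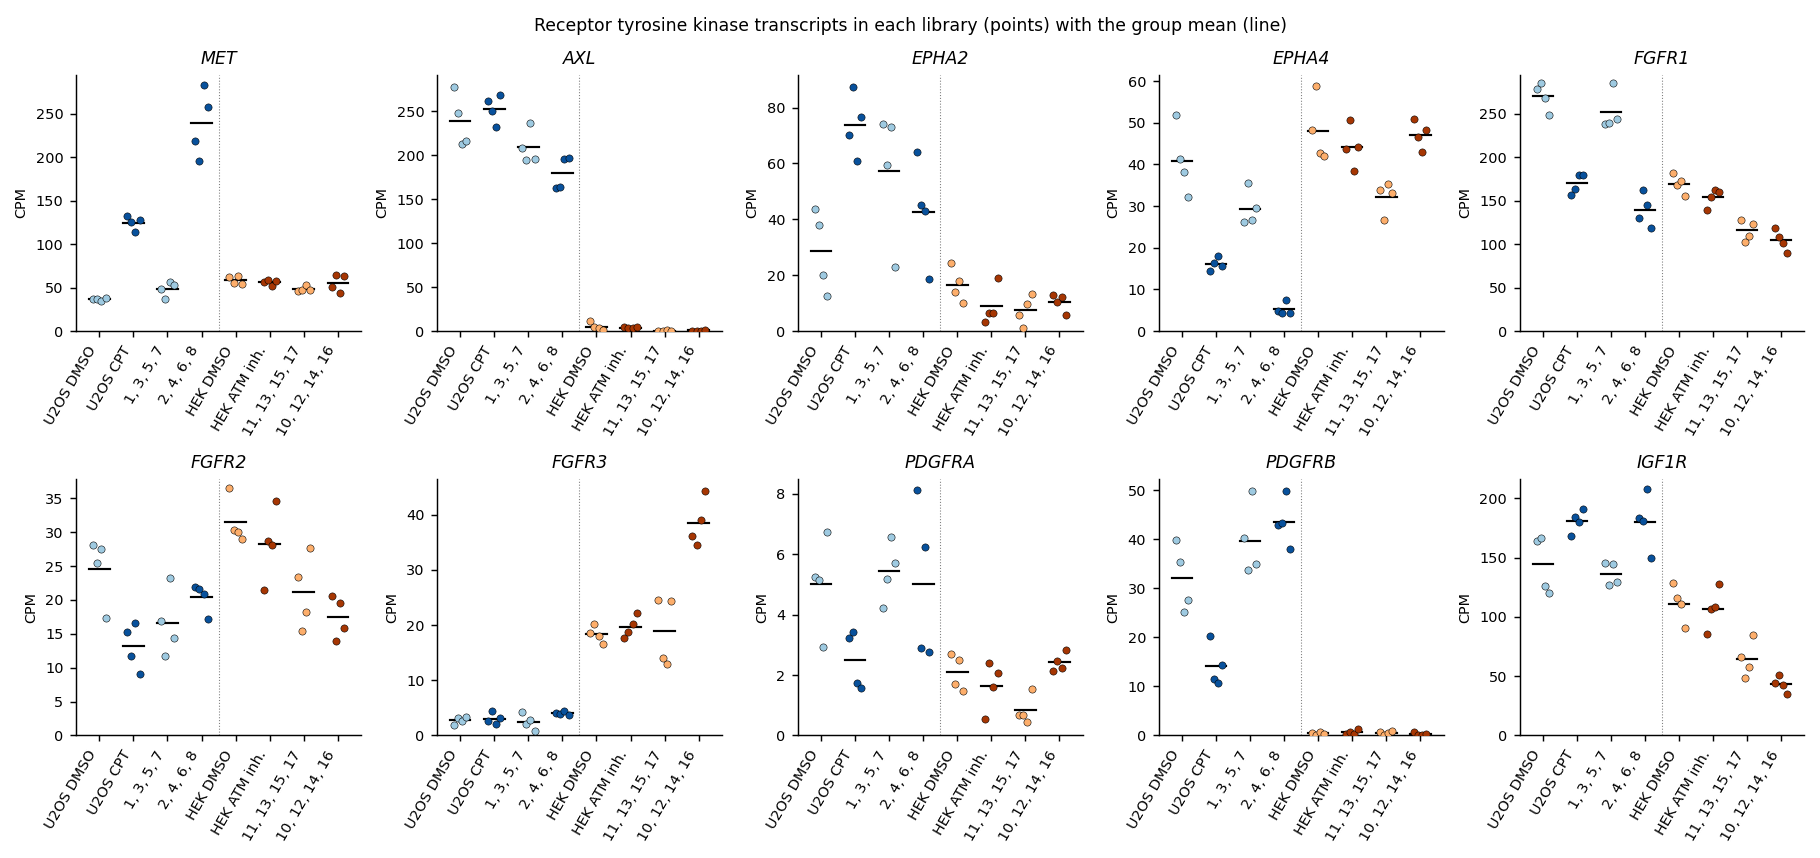
CPM of each receptor (vertical axes from 0, one panel per gene) in each library (points) of the 8 groups (horizontal axes; numbers are library numbers), with a line at the group mean. Groups left of the dotted line have a U2OS profile and groups right of it a HEK293T profile; MET stands at 114 CPM or more in U2OS CPT and in libraries 2, 4, 6 and 8, and at 64.5 CPM or less in every other library, while AXL and PDGFRB are near 0 on the right.

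Libraries 2, 4, 6 and 8, labelled HEK293T CPT but with a U2OS profile, had the highest MET of the series. They held 219, 196, 283 and 258 CPM, against 48.7, 37.2, 56.9 and 53.2 CPM in libraries 1, 3, 5 and 7. The groups were clear of each other, with a 4.76-fold change (log2 2.25, SE 0.161, edgeR quasi-likelihood test with Benjamini-Hochberg adjustment, adjusted p = 1.19e-16). Without library 1, the one labelled U2OS WT, the log2 change was 2.27 (edgeR adjusted p = 8.88e-12).

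EPHA4 was low in the same libraries. It had 4.87, 4.33, 7.46 and 4.47 CPM in 2, 4, 6 and 8, from 6 to 43 counts, and 26.1, 35.5, 26.6 and 29.4 CPM in 1, 3, 5 and 7. Every even-numbered library was below every odd-numbered one, by a fitted factor of 5.44 (log2 -2.44, SE 0.226, edgeR adjusted p = 1.83e-12).

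FGFR1, the main fibroblast growth factor receptor of these cells, fell by 0.88 on the log2 scale (SE 0.153, edgeR adjusted p = 2.17e-05), short of the fold cutoff. Its libraries had 131, 163, 145 and 119 CPM in 2, 4, 6 and 8 and 238, 239, 285 and 244 CPM in 1, 3, 5 and 7, and did not overlap. The fall passes the cutoff without library 4 (log2 -1.02). IGF1R, at 183, 181, 208 and 150.0 CPM against 145, 127, 145 and 129 CPM, did not overlap either but had an edgeR adjusted p of 0.0966 (log2 0.37, 95% interval 0.0765 to 0.672).

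Of the 10 members, 1 was called higher and 1 lower between these libraries, where 2.8% of the 18591 genes tested were called higher and 2.44% lower. An adjusted p under 0.05 was reached by 3 members and by 13% of all genes, and groups did not overlap for 4 members and for 13.6% of all genes. The other 6 members had log2 differences from -0.52 for EPHA2 to 0.83 for FGFR3, none with an adjusted p under 0.05. EPHA2 varied widely within both groups, from 18.7 to 64.1 CPM in the even and from 22.9 to 74.1 CPM in the odd numbers, with libraries 7 and 8 the lowest of each. U2OS markers summed to 1805 to 2011 CPM in the even and 1986 to 2803 CPM in the odd numbers, and HEK293T markers to 175 to 303 and 191 to 290 CPM. One marker of the 8 in each list was called, THBS1 and MYCN, both lower, and NEFM was at 0.258 ± 0.516 and 0.421 ± 0.673 CPM. Their part in the result was not tested.

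MET was called higher in both U2OS-profile comparisons together with 148 genes in all, which, among the 17633 genes tested in both, is 11.5% of the genes called higher with CPT and 30% of those called higher in libraries 2, 4, 6 and 8. EPHA4 was one of 122 called lower in both, 12% and 27.5% of the respective lists among the same 17633 genes. The 2 comparisons share no library.

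Libraries 10, 12, 14 and 16, labelled U2OS ATM KO but with a HEK293T profile, did not show the MET change. They had 50.2, 64.5, 43.8 and 64.0 CPM against 45.8, 47.7, 52.9 and 47.7 CPM in libraries 11, 13, 15 and 17. The groups overlapped, and the log2 difference was 0.18 (95% interval -0.0827 to 0.442, edgeR quasi-likelihood test with Benjamini-Hochberg adjustment, adjusted p = 0.315).

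FGFR3 and PDGFRA were the members called here, both higher. FGFR3 (ENSG00000068078, chromosome 4, 1793293 to 1808872) had 36.1, 34.6, 39.0 and 44.3 CPM in 10, 12, 14 and 16 and 24.6, 14.05, 12.9 and 24.4 CPM in 11, 13, 15 and 17. The groups did not overlap and the change was 2.01-fold (log2 1.01, SE 0.182, edgeR adjusted p = 0.000158), so close to the fold cutoff that it falls short of it without library 13 (log2 0.90), 15 (0.86) or 16 (0.93).

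PDGFRA (ENSG00000134853, chromosome 4, 54229097 to 54298247) had 2.14, 2.47, 2.24 and 2.83 CPM against 0.674, 0.677, 0.444 and 1.55 CPM. These are 7 to 18 counts per library against 2 to 7, so the lower group reaches below the detection limit of 3 counts. The fitted log2 change was 1.54 (SE 0.422, edgeR adjusted p = 0.00664).

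EPHA4 and IGF1R had a low adjusted p with a smaller change. EPHA4 rose by 0.53 on the log2 scale (47.1 ± 3.34 against 32.2 ± 3.87 CPM, edgeR adjusted p = 0.00287), opposite in sign to the U2OS-profile comparisons. IGF1R fell by 0.60 (43.2 ± 6.45 against 64.2 ± 15.5 CPM, edgeR adjusted p = 0.00354), with overlapping groups. In all, 2 members were called higher and 0 lower, where 9.52% of the 19464 genes tested were called higher and 4.45% lower, and 4 members and 34.9% of all genes had an adjusted p under 0.05. Groups did not overlap for 3 members, FGFR3, PDGFRA and EPHA4, and for 31% of all genes. Of the genes not called, FGFR1 had 105 ± 12.2 against 116 ± 11.8 CPM, FGFR2 17.4 ± 3.10 against 21.2 ± 5.47 CPM and EPHA2 10.3 ± 3.24 against 7.50 ± 5.27 CPM. AXL had 2 to 8 counts per library and PDGFRB 0 to 4, at or near the detection limit, and no fold is given for either.

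U2OS markers were higher in libraries 10, 12, 14 and 16, summing to 147 to 225 CPM against 61.9 to 71.7 CPM, and 4 of the 7 tested were called higher (ANXA1, LGALS1, CCN2 and, at 0.700 ± 0.382 against 0.111 ± 0.222 CPM, CD44). HEK293T markers summed to 1174 to 1477 CPM against 1322 to 1712 CPM, and 2 of the 8 were called higher (MYCN and SOX2). AXL, which had 213 CPM or more in libraries 26 to 33, had at most 1.33 CPM in these 8 libraries, and S100A6 was at 0.153 ± 0.306 and 0.0554 ± 0.111 CPM. The part of the markers in the receptor values was not tested.

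**Figure D2:**
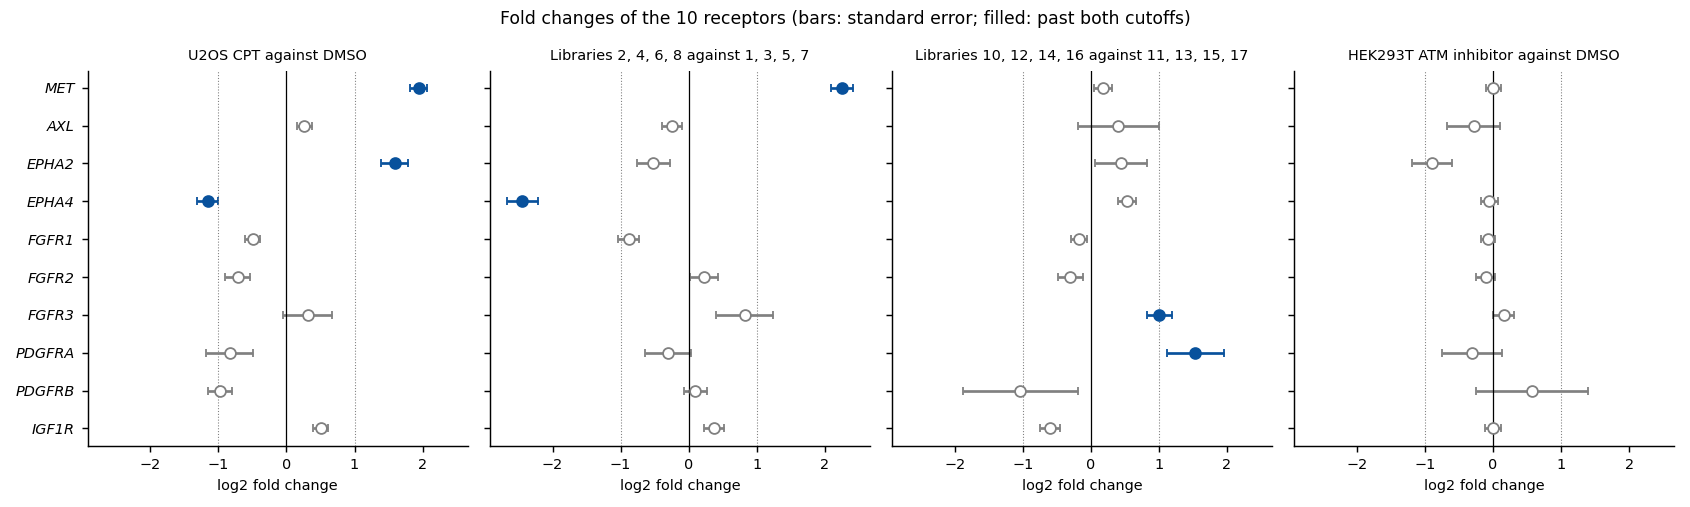
Log2 fold change of each receptor (horizontal axes) in 4 comparisons (panels), with bars of 1 standard error; filled points are past both cutoffs and dotted lines mark the fold cutoff of 1. MET lies at 1.94 and 2.25 in the first and second panels and at 0.18 and 0.00 in the other two, and EPHA4 is below -1 in the first and second; the wide bars of AXL and PDGFRB in the last panels belong to genes near the detection limit.

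No member passed the test between the ATM inhibitor libraries and their DMSO controls. MET had 56.7, 59.4, 51.4 and 57.9 CPM in libraries 18 to 21 and 62.8, 54.8, 63.6 and 53.9 CPM in 22 to 25. The values interleave, with a log2 difference of 0.00 (95% interval -0.214 to 0.216, edgeR quasi-likelihood test with Benjamini-Hochberg adjustment, adjusted p = 0.999). Of all 18413 genes tested, 0 were called in either direction (0% higher and 0% lower), 0.00543% had an adjusted p under 0.05 and 1019 had an unadjusted p under 0.05. edgeR's likelihood ratio test called 2 genes. None of the 10 members had groups that did not overlap, against 3.07% of all genes. For FGFR1 (-0.27 to 0.121), EPHA4 (-0.304 to 0.199) and IGF1R (-0.224 to 0.223) the 95% intervals of the log2 difference leave out any 2-fold change.

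EPHA2 was the member with the lowest p here. It had 3.26, 6.63, 6.39 and 19.2 CPM in the ATM inhibitor libraries and 24.5, 13.99, 17.8 and 10.1 CPM in the controls, so library 21 lies among the controls. The log2 difference was -0.90 with an unadjusted p of 0.0043 and an edgeR adjusted p of 0.797. This adjusted p depends on the processing. It was 0.464 with edgeR's likelihood ratio test, and 0.0145 with the quasi-likelihood test and no filter, at a log2 difference of -0.91, short of the fold cutoff. Without library 21 the log2 difference was -1.53 and called, with an edgeR adjusted p of 0.00111. AXL, at 4.34, 3.01, 3.51 and 5.14 CPM against 11.4, 4.86, 3.51 and 0.889 CPM, varied more within the controls than between the groups. U2OS markers summed to 147 CPM in library 21 and 127 CPM in library 22, the highest sums of these 8 libraries, which otherwise had 80.9 to 98.5 CPM, and EPHA2 and AXL were the highest of their groups in these same libraries. The part of the markers in these values was not tested.

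The responses of the receptors were also compared between the sets of libraries by an interaction test. It reuses the fold changes by which the members were chosen, so its p-values are a description only. The CPT effect in U2OS minus the difference of 10, 12, 14 and 16 against 11, 13, 15 and 17 was called for MET (log2 1.76, SE 0.185, edgeR quasi-likelihood interaction test, adjusted p = 4.21e-10), EPHA4 (-1.69, adjusted p = 1.33e-08), PDGFRA (-2.38, adjusted p = 0.00107) and IGF1R (1.11, adjusted p = 1.09e-05). Of the 22363 genes tested, 11.9% were called in either direction. EPHA2 had a difference of 1.15 with an edgeR adjusted p of 0.0504 (95% interval 0.311 to 2).

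Against libraries 1 to 8, the MET effect of CPT in U2OS did not pass the test of the difference (log2 -0.31, 95% interval -0.703 to 0.0893, edgeR adjusted p = 0.327). By the same edgeR test the difference was called for EPHA2 (2.11, adjusted p = 4.34e-06), for EPHA4, whose fall was deeper in libraries 2, 4, 6 and 8 (1.27, adjusted p = 0.000368), and for PDGFRB (-1.07, adjusted p = 0.00103). FGFR2 (-0.93, edgeR adjusted p = 0.0146) and AXL (0.51, edgeR adjusted p = 0.0432) had a low adjusted p under the fold cutoff. Of the 20539 genes tested, 10.8% were called. In these tests the set of libraries, the line, the perturbation and the CPT dose cannot be told apart.

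AXL and PDGFRB were the members with the largest fold changes between the lines. U2OS DMSO libraries had 278, 248, 213 and 217 CPM of AXL and HEK293T DMSO libraries 11.4, 4.86, 3.51 and 0.889 CPM. AXL (ENSG00000167601, chromosome 19, 41219203 to 41261766) thus had 3250 counts in U2OS and 72 in HEK293T, a ratio of 46.8 after division by depth (95% exact interval 37.0 to 59.9). Library 22 holds the most of these HEK293T counts, and without it the fitted log2 difference was 6.45 in place of 5.76, while the interval covers counting error only. PDGFRB (ENSG00000113721, chromosome 5, 150113837 to 150155872) had 39.8, 35.4, 25.2 and 27.6 CPM in U2OS and 0.598, 0, 0.752 and 0.296 CPM in HEK293T. With 6 counts over the 4 HEK293T libraries against 433, the ratio was 74.8 (34.1 to 205).

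PDGFRA was also called higher in U2OS (5.02 ± 1.57 against 2.10 ± 0.591 CPM, log2 1.48, edgeR adjusted p = 0.000245). FGFR3 was called lower in U2OS, at 2.74 ± 0.662 against 18.4 ± 1.52 CPM (log2 -2.49, edgeR adjusted p = 2.78e-11). FGFR1 and IGF1R were higher in U2OS by less than the fold cutoff, by 0.90 and 0.59 on the log2 scale, as was EPHA2 by 0.97, which DESeq2 put just past the cutoff. MET was lower in U2OS DMSO, at 36.5 ± 1.42 against 58.8 ± 5.13 CPM (log2 -0.46, SE 0.123, edgeR adjusted p = 0.00162). EPHA4 (-0.02) and FGFR2 (-0.14) had small fitted differences, although the CPM of FGFR2 did not overlap (24.6 ± 4.99 in U2OS against 31.5 ± 3.40 in HEK293T). Of the 10 members, 3 were called higher and 1 lower in U2OS, where 21.8% and 18.1% of the 19739 genes tested were called. An adjusted p under 0.05 was reached by 8 members and 62.1% of all genes, and groups did not overlap for 7 members and 55.5% of all genes.

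Ordered by level, MET had 239 ± 38.9 CPM in libraries 2, 4, 6 and 8, 125 ± 7.97 in U2OS CPT, 58.8 ± 5.13 in HEK293T DMSO, 56.3 ± 3.46 with the ATM inhibitor, 55.6 ± 10.3 in libraries 10, 12, 14 and 16, 49.0 ± 8.56 in 1, 3, 5 and 7, 48.5 ± 3.04 in 11, 13, 15 and 17, and 36.5 ± 1.42 in U2OS DMSO. The first and second groups stood clear of each other and of the rest. The next 5 overlapped with their neighbours, and U2OS DMSO lay below all libraries of the group above it in this order. The U2OS DMSO libraries and libraries 1, 3, 5 and 7, which share the U2OS profile, overlapped at one library, number 3 at 37.2 CPM.

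Counts of 3′ tags do not scale with transcript length, so levels of receptors are set side by side here as an approximation. Other differences between genes in how well their tags are counted were not tested. Among the 58 receptor tyrosine kinases MET ranked 14th by mean CPM in U2OS DMSO and 6th in U2OS CPT, and 13th in libraries 1, 3, 5 and 7 and 2nd in 2, 4, 6 and 8. In HEK293T-profile groups its rank was 3 to 8. MET made up 1.53% ± 0.146 of the receptor tyrosine kinase counts in U2OS DMSO and 6.03% ± 0.404 after CPT, and 2.48% ± 0.4 and 11.9% ± 1.89 in the odd and even libraries of 1 to 8. The summed level of all 58 did not follow MET. It was 2409 ± 236 CPM in U2OS DMSO and 2071 ± 52.8 CPM after CPT, and 1974 ± 187 and 2016 ± 165 CPM in the odd and even libraries. EPHA4 dropped from rank 12 to 19 with CPT and from 17 to 29 between the odd and even libraries, and FGFR1 from 2 to 5 and from 1 to 5.

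Other receptor tyrosine kinases changed in both directions. In U2OS CPT, 2 of the 37 tested were called higher and 7 lower, with a median log2 change of 0.04 against 0.01 over all genes tested. Of all genes tested, 7.97% were called higher and 5.5% lower. EPHB1, an ephrin receptor, rose from 4.23 ± 0.877 to 19.01 ± 2.82 CPM (log2 2.34) and EGFR, the epidermal growth factor receptor, from 21.7 ± 1.67 to 46.6 ± 5.20 CPM (log2 1.27). ROR1, a WNT5A receptor, fell from 256 ± 17.6 to 28.5 ± 5.41 CPM (log2 -2.99). The neurotrophin receptor NTRK3 (log2 -3.61) and the ephrin receptor EPHA5 (-3.93) were among the steepest falls, with ERBB3 (-2.22).

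In libraries 2, 4, 6 and 8, 4 of the 36 tested were called higher and 4 lower (median 0.05, all genes 0.04). Of all genes tested, 2.8% were called higher and 2.44% lower. ERBB4 (log2 2.47) and ERBB3 (1.64), receptors of the neuregulins, STYK1 (1.37) and EPHA5 (1.27) were higher, and NTRK3 (-1.84), ROR1 (-1.09) and TEK, the angiopoietin receptor (-3.32), were lower, with EPHA3 near the detection limit. ERBB3 and EPHA5 thus had opposite signs in the U2OS-profile comparisons, and NTRK3, ROR1 and TEK the same sign.

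In libraries 10, 12, 14 and 16, 5 of the 40 tested were called higher and 4 lower (median -0.39, all genes 0.04). Of all genes tested, 9.52% were called higher and 4.45% lower. DDR2, a collagen receptor, fell from 140 ± 45.0 to 40.2 ± 3.83 CPM (log2 -1.82), and FLT1, a receptor of vascular endothelial growth factor, rose from 21.01 ± 2.64 to 44.1 ± 5.74 CPM (log2 1.05). Without library 17, 5 were called higher and 6 lower. With the ATM inhibitor, 0 of 39 were called, and 0% of all genes. Between the lines, 12 of the 40 tested were called higher in U2OS and 15 lower, where 21.8% and 18.1% of all genes were called. Among them were NTRK3 (21.1 ± 2.24 against 0.560 ± 0.400 CPM) and EPHB3 (39.2 ± 4.67 against 4.55 ± 1.51 CPM) on the U2OS side and KIT, the stem cell factor receptor (0.0601 ± 0.120 against 49.1 ± 10.8 CPM), on the HEK293T side.

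**Figure D3:**
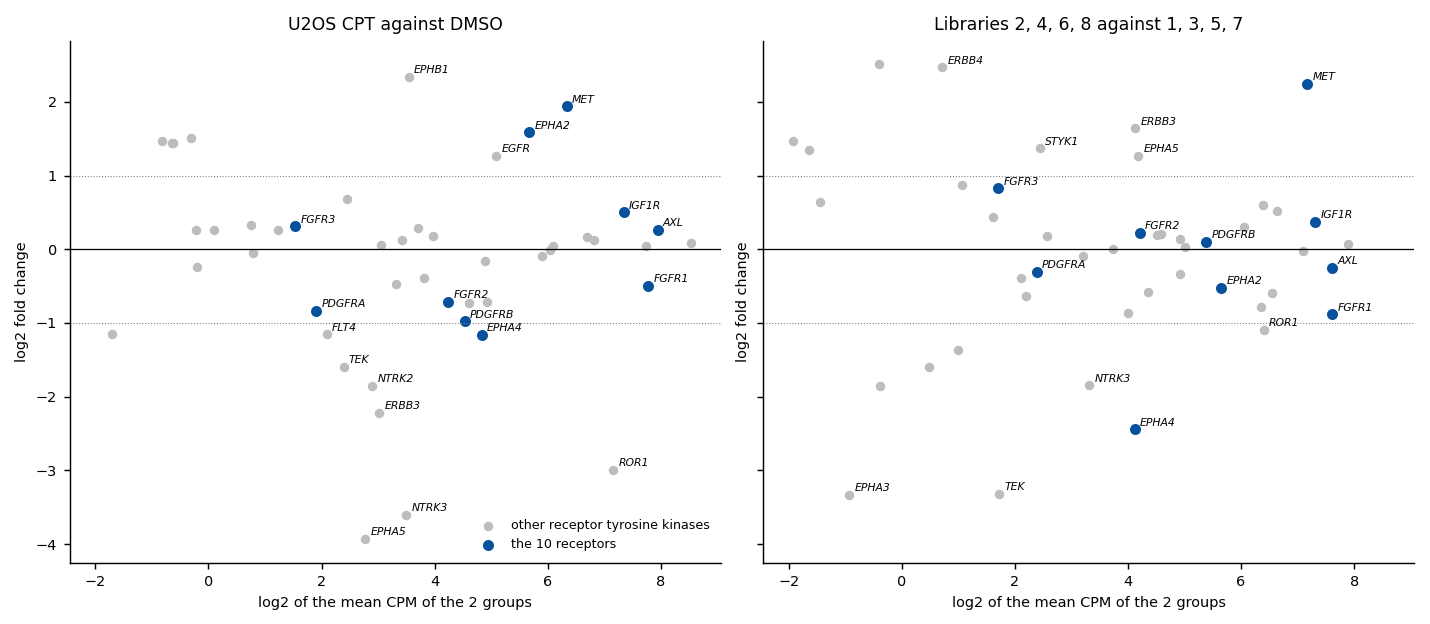
Log2 fold change (vertical axes) against the log2 of the mean CPM of the compared groups (horizontal axes) for each receptor tyrosine kinase tested in the comparisons with a U2OS profile; blue points are the 10 receptors and grey points the others, with names on the members and on genes past both cutoffs. MET lies at 1.94 and 2.25, and EPHA4, NTRK3, ROR1 and TEK lie below 0 in both.

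Ligands of the members changed in both directions. With CPT in U2OS, 4 of the 20 tested were called higher and 4 lower (median log2 -0.34), where 7.97% of all genes were called higher and 5.5% lower. FGF1, a ligand of all FGF receptors, rose from 4.29 ± 0.662 to 24.5 ± 3.18 CPM (log2 2.69), and EFNB1 (1.75) and FGF5 (1.37) were also higher. PROS1 (1.18) was higher too, and it is listed as a ligand of the AXL family and not of AXL itself. FGF9 fell from 12.9 ± 2.92 to 0.844 ± 0.830 CPM (log2 -3.66), a level at or near the detection limit. PDGFB fell from 44.0 ± 18.2 to 8.86 ± 2.20 CPM (log2 -2.10), with EFNA3 (-1.41) and EFNB3 (-1.22). HGF, the ligand of MET, had too few counts to be tested, at 0.0866 ± 0.173 CPM with CPT and 0 with DMSO, where 0 counts allow up to 3.

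In libraries 2, 4, 6 and 8, 2 of 21 ligands were called higher, PDGFC (124 ± 12.2 against 50.7 ± 7.28 CPM) and FGF5, and 1 lower, PDGFB (27.4 ± 12.2 against 74.2 ± 17.7 CPM). In libraries 10, 12, 14 and 16, 6 of 24 were called higher and 2 lower (median 0.33). IGF2, an IGF1R ligand, rose from 9.78 ± 1.98 to 72.0 ± 23.7 CPM (log2 2.84) while IGF1R fell, and FGF9 rose from 3.94 ± 0.696 to 23.6 ± 1.096 CPM (log2 2.53), opposite to U2OS CPT. FGF18 (log2 3.97) and FGF5 (1.87) rose from levels at or near the detection limit. With the ATM inhibitor 0 of 22 were called. Between the lines, 9 of 24 were higher in U2OS and 4 lower, with PDGFB, a ligand of PDGFRB, at 44.0 ± 18.2 against 0.975 ± 0.309 CPM. The shares of all genes called higher and lower were 2.8% and 2.44% in libraries 2, 4, 6 and 8, and 9.52% and 4.45% in 10, 12, 14 and 16. They were 0% and 0% with the ATM inhibitor, and 21.8% and 18.1% between the lines.

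Adaptors and effectors were called in 3 of the 5 comparisons. In U2OS CPT, 1 of the 17 tested was called, GAB2, a docking protein of MET and other receptors, which rose from 11.8 ± 2.60 to 22.9 ± 3.58 CPM (log2 1.12). Of all genes tested there, 7.97% were called higher and 5.5% lower. None of 17 was called in libraries 2, 4, 6 and 8, where 2.8% of all genes were called higher and 2.44% lower. With the ATM inhibitor none of 19 was called, and 0% of all genes. In libraries 10, 12, 14 and 16, 2 of 20 were called, both insulin receptor substrates and both lower, IRS4 from 46.4 ± 6.20 to 13.7 ± 1.998 CPM (log2 -1.79) and IRS1 from 4.15 ± 1.38 to 1.84 ± 0.487 CPM (log2 -1.20). Between the lines, 4 of 19 were higher in U2OS and 2 lower, IRS1 (87.9 ± 12.5 against 6.18 ± 2.73 CPM) standing on the U2OS side and IRS4 (0.305 ± 0.285 against 75.9 ± 14.9 CPM) on the HEK293T side. The shares of all genes called higher and lower were 9.52% and 4.45% in libraries 10, 12, 14 and 16, and 21.8% and 18.1% between the lines.

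Negative regulators called in the U2OS-profile comparisons were lower. In U2OS CPT, 6 of 25 were lower and 0 higher, where 5.5% of all genes tested were called lower and 7.97% higher, and the median was -0.10. In libraries 2, 4, 6 and 8, 3 of 24 were lower (2 without library 1) and 0 higher, where 2.44% of all genes were called lower and 2.8% higher. LRIG3, a transmembrane protein of a family that restrains receptor tyrosine kinases, fell from 45.9 ± 12.8 to 5.85 ± 1.05 CPM with CPT (log2 -2.78) and from 47.2 ± 7.46 to 11.2 ± 1.62 CPM between the odd and even libraries (log2 -2.15). SPRY2 fell in both as well (log2 -1.26 and -1.44), as did the cytokine signalling suppressor SOCS1 (log2 -3.59 and -1.01). SOCS3 (-2.49) and LRIG1 (-1.52) were lower with CPT, and SPRY1, at 1.03 ± 0.515 CPM with DMSO and 0 with CPT, was at the detection limit.

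In libraries 10, 12, 14 and 16, 4 of 24 negative regulators were called higher and 1 lower (median -0.03). SPRY2 rose from 7.43 ± 2.15 to 22.6 ± 5.17 CPM (log2 1.57) and SPRED2 from 6.98 ± 1.68 to 17.1 ± 2.89 CPM (log2 1.26), while LRIG3, with overlapping groups, was lower (-1.47). SOCS1 (3.24) started from under the detection limit. With the ATM inhibitor 0 of 23 were called, and between the lines 10 of 25 were higher in U2OS and 4 lower. The shares of all genes called higher and lower were 9.52% and 4.45% in libraries 10, 12, 14 and 16. They were 0% and 0% with the ATM inhibitor, and 21.8% and 18.1% between the lines.

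Most ERK target genes were higher in one comparison. In libraries 10, 12, 14 and 16, 14 of 17 were called higher and 1 lower, with a median log2 change of 2.45 against 0.04 over all genes, of which 9.52% were called higher and 4.45% lower, and 13 and 1 without library 17 (median 2.5). ETV5 rose from 0.238 ± 0.0718 to 7.44 ± 1.45 CPM (log2 4.801, from a level at the detection limit), DUSP5 from 0.742 ± 0.244 to 9.25 ± 1.07 CPM (3.53) and DUSP6 from 0.880 ± 0.266 to 9.27 ± 1.69 CPM (3.35). Of those better above the limit, named after their values were seen, IER3, an early response gene, rose from 14.1 ± 1.83 to 78.0 ± 14.6 CPM (2.45) and EGR1 from 3.51 ± 1.28 to 23.1 ± 3.06 CPM (2.66). MYC was the exception, falling from 104 ± 47.3 to 11.5 ± 4.94 CPM (log2 -3.27). SPRY2 and SPRY4 are on this list and on that of the negative regulators.

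In the U2OS-profile comparisons ERK targets did not move one way. With CPT, 5 of 16 were called higher, EPHA2 among them, and 4 lower (median 0.04), with MYC at 29.1 ± 2.37 against 13.2 ± 2.997 CPM and PHLDA1 at 16.2 ± 4.68 against 163 ± 20.7 CPM. In libraries 2, 4, 6 and 8, 0 of 16 were called higher and 5 lower (median -0.53), with DUSP6 at 0.552 ± 0.435 against 4.76 ± 1.05 CPM and IER3 at 249.7 ± 61.8 against 639 ± 121 CPM. MET rose in both. With the ATM inhibitor 0 of 16 were called, and between the lines 13 of 17 were higher in U2OS and 2 lower. The shares of all genes called higher and lower were 7.97% and 5.5% with CPT, and 2.8% and 2.44% in libraries 2, 4, 6 and 8. They were 0% and 0% with the ATM inhibitor, and 21.8% and 18.1% between the lines.

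**Figure D4:**
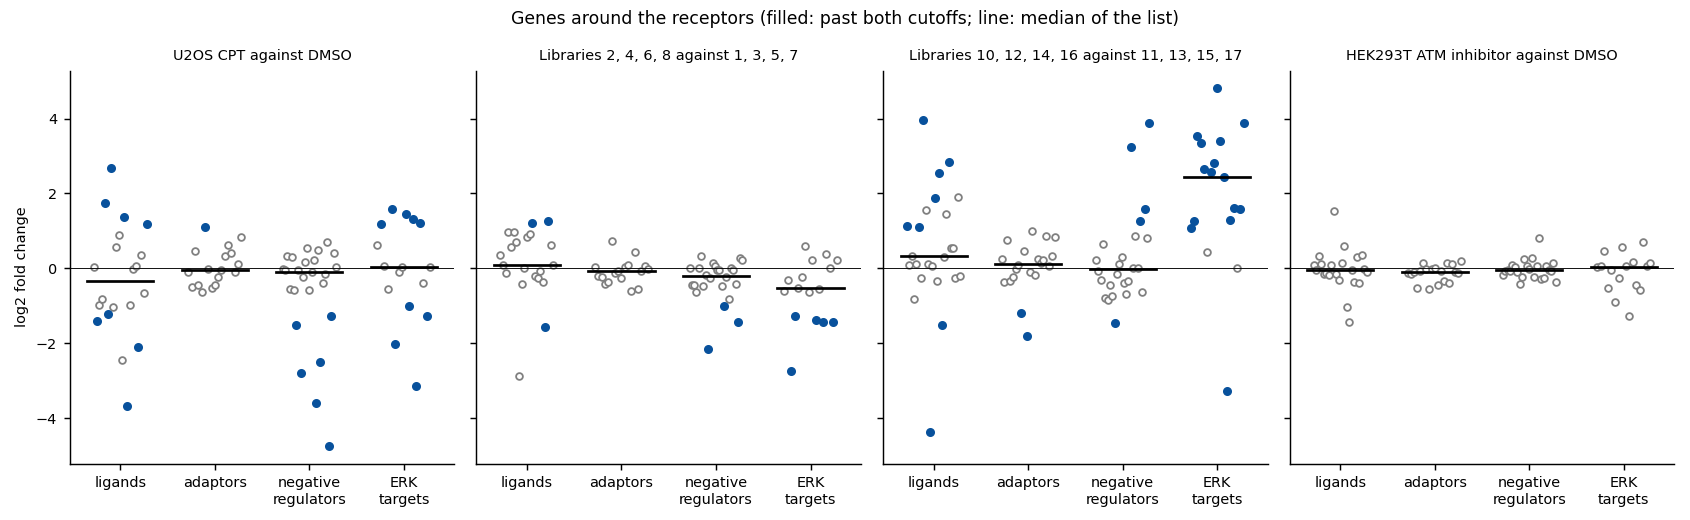
Log2 fold change (vertical axis) of each tested gene of 4 lists around the receptors (horizontal axes) in 4 comparisons (panels); filled points are past both cutoffs and the line is the median of the list. The ERK targets of libraries 10, 12, 14 and 16 have a median of 2.45, negative regulators are filled only below 0 in the first and second panels, and no point is filled for the ATM inhibitor.

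The genes whose pattern was most like that of MET were found over the 16 libraries with a U2OS profile (1 to 8 and 26 to 33), among 9757 genes, by Pearson correlation of log2 CPM. The 9757 genes were those whose mean log2 CPM over the same 16 libraries passed a minimum. A gene low in some groups can pass it through the groups where MET is high. PAPPA, for one, had 2.80 CPM in U2OS DMSO and 21.5 CPM in libraries 2, 4, 6 and 8. The order is thus a description only. The points fall into 4 groups of 4 libraries, so r describes mostly the differences between groups. SHOC1 (r = 0.975), OPTN (0.965), SMPDL3B (0.942), ANXA1 (0.942) and PAPPA (0.937) came first, and ANXA1 is one of the U2OS markers. SHOC1 had 3.52 ± 1.38 CPM in U2OS DMSO, 20.3 ± 1.97 in CPT, 7.50 ± 0.378 in libraries 1, 3, 5 and 7 and 69.5 ± 12.1 in 2, 4, 6 and 8. OPTN had 32.2 ± 2.25, 76.0 ± 6.09, 44.3 ± 9.65 and 142 ± 39 CPM in the same order. Of the other members, FGFR1 (r = -0.951) and EPHA4 (-0.949) ran opposite to MET and IGF1R ran with it (0.721), while the remaining 6 had r between -0.351 and 0.498.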

How the data were processed

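RNA was measured by 3′ mRNA sequencing (QuantSeq with molecular identifiers) in 32 libraries, 4 per group. The deposited values are raw counts per gene, which the authors made on a commercial pipeline for this kit; the aligner and genome build are not given in the sources used here. The 5 summary lines (10.9 to 40.6% of counts) and 92 spike-in lines were left out. Genes were tested per comparison if 2 or more of its libraries had over 1 count, with edgeR 4.0.16 (R 4.3.3, TMM, quasi-likelihood test, Benjamini-Hochberg adjustment over all genes tested). Standard errors are the fold change divided by the root of F. Scripts were tested on simulated data. Alternatives were DESeq2 1.42.0, the likelihood ratio test, RLE scaling, filterByExpr, no filter, the deposited labels as groups and each library left out; list counts without library 1 or 17 were added after seeing the data. The members and lists were chosen with earlier results of these data known. Genes were named from each list if called with groups that did not overlap, at most 4 per direction and comparison by size of change, with the members, ATM, CDKN1A and the 5 genes most like MET; IER3 and EGR1 in libraries 10 to 17, and LRIG3 there, fall outside this rule in part. Promoters are from RefSeq.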

Additional observations from a re-analysis of the deposited data

Results flagged for a closer look

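Among the 80 sets of 4 libraries examined for the 10 receptors, 3 had 1 library far from the other 3, and chance gives about 1 in 20. AXL had 1.26 CPM in library 16 against 0.612 to 0.640 CPM in 10, 12 and 14, all near the detection limit. FGFR1 had 285 CPM in library 5 against 238 to 244 CPM in 1, 3 and 7. FGFR2 had 36.5 CPM in HEK293T DMSO library 22 against 29.03 to 30.3 CPM in 23 to 25.

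Responses differed between sets of libraries by the interaction test of edgeR for 7 pairs of a receptor and a comparison. The log2 response to CPT in U2OS minus the difference between the even and odd numbers of libraries 10 to 17 was 1.76 for MET, -1.69 for EPHA4, -2.38 for PDGFRA and 1.11 for IGF1R. Against libraries 1 to 8 it was 2.11 for EPHA2, 1.27 for EPHA4 and -1.07 for PDGFRB. PDGFRA rests on 2 to 28 counts per library.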

How the results depend on the processing

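No paired analysis was run because the labels give no replicate number shared between groups. In libraries 1 to 8, EPHA2 was lower in each even number than in the odd number before it, and a pairing of neighbours was not tested. With the filterByExpr filter the number of genes called was 1652 in place of 2569 for U2OS CPT, 1461 in place of 2718 for libraries 10 to 17, 644 in place of 974 for libraries 1 to 8 and 5090 in place of 7872 between the lines; fewer genes are tested under it. For the ATM inhibitor the likelihood ratio test called 2 genes, no filter 2, and leaving out 1 library between 0 and 14 (14 without library 21), in place of 0. Groups by deposited label, which mix both profiles, gave 631 calls in libraries 10 to 17 and 39 in libraries 1 to 8, with MET at 2.36 and EPHA4 at -2.44 in the latter, still called, and with AXL at -6.13 and EPHA2 at -1.26 in the former and AXL at 0.19, EPHA2 at 0.0234, FGFR3 at -0.69 and PDGFRA at 0.069 in the latter, of opposite sign to the values by number. Values near 0 also changed sign. MET with the ATM inhibitor was -0.00103 with DESeq2 and RLE scaling, -0.000686 with filterByExpr and -0.00534 without a filter, and EPHA4 between the lines was 0.00212 with DESeq2 and 0.00196 with RLE scaling. Leaving out 1 library gave, for the ATM inhibitor, -0.0503 to 0.0360 for MET, -0.615 to 0.405 for AXL, -0.151 to 0.0654 for EPHA4 and -0.0813 to 0.0805 for IGF1R. It gave -0.0305 to 0.919 for AXL in libraries 10 to 17, -0.628 to 0.00312 for PDGFRA and -0.0262 to 0.227 for PDGFRB in libraries 1 to 8, and -0.103 to 0.0979 for EPHA4 between the lines. FGFR3 in libraries 10 to 17 was 1.00 without a filter, just short of the fold cutoff, and 1.35 by deposited label with an edgeR adjusted p of 0.0573, and PDGFRA there was 1.03 by label with an edgeR adjusted p of 0.417. PDGFRA in U2OS CPT was called without library 27 or 32 (-1.03 each), and EPHA2 between the lines with DESeq2 (1.004, adjusted p = 0.043) and without 22, 32 or 33 (1.08 to 1.22). The cause was not tested. Depth limits AXL, PDGFRA and PDGFRB in HEK293T-profile libraries.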
